A study of Mus musculus with 4 samples.

Results

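The 33 genes that encode the subunits of the Mediator complex were followed in lists of accessible chromatin from mouse hematopoietic stem cells (HSCs), among 21755 annotated protein-coding genes. Each gene was taken by name, together with every peak whose summit lay within 2 kb of one of its annotated start sites (186 start sites in all) and every other peak with its summit in the gene body. Of the 37887 WT peaks on the autosomes and chromosome X, 65 belonged to these genes, 35 at promoters and 30 elsewhere in the genes. Of the 37615 KO peaks, 65 did too, 31 at promoters and 34 elsewhere.

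Mediator bridges transcription factors bound to DNA and RNA polymerase II. Its tail module, which holds Med23, receives most activators. The head and middle modules contact the polymerase, and Med14 is the scaffold that joins the parts. A separable kinase module made of Med12, Med13, cyclin C and Cdk8 or its paralog Cdk19 binds the core in a reversible way and hinders its contact with the polymerase. In blood, Mediator subunits are known as partners of lineage transcription factors at enhancers.

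Open chromatin was mapped by ATAC-seq on 5000 sorted cells a sample; the Tn5 transposase used in this assay cuts and tags DNA that is not packed. The cells came from the bone marrow of adult C57BL/6 mice through a gate that the labels give as Lin-Sca-1+Kit+ (LSK) CD150+CD34-CD48- and the methods of the study without CD34. WT mice carried floxed Med23 without cre, and KO mice carried floxed Med23 and Mx1-cre, an interferon-inducible cre that the study switched on with poly(I:C) and that recombines in many tissues besides HSCs. The floxed alleles are thus shared by both groups, and whether the WT mice of this experiment received poly(I:C) is not given in the sources used here. The labels name 4 samples, 2 a genotype, but both samples of a genotype point to the same peak list. Every comparison is therefore between 1 WT list and 1 KO list, with no replicate check and no p-value.

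Each peak is described by its pileup and by a KO to WT ratio. The pileup is the number of aligned fragments or reads stacked at the summit base, solved from the deposited fold enrichment and −log10 p. Being a count at a single base, it can be compared between genes of different length. The KO to WT ratio divides each pileup by the genome-wide background of its list, 1.19 in WT and 1.13 in KO, and is given on the log2 scale with an exact binomial 95% interval that covers counting error only. Its median over the 13168 coding promoter regions with 1 peak in each list was 0.0982, and a promoter was called past the fold when it lay at least 1.5-fold above or below that median.

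The sequences just upstream of a start site of each gene the comparison turns on are given first. They were read from the mm10 assembly (RefSeq GRCm38.p6) on the strand of the gene and are free of annotated exons. The genes are the deleted Med23, the member with the highest KO to WT ratio (Med12) and those with the lowest ratios (Med18 and Med15). The others are Med27 with no KO promoter peak, and 3 of the members whose stretch holds a pair of the motifs searched (Med17, Med21 and Ccnc). The Med15 stretch lies inside the gene, upstream of an inner start site (chr16, 17722880, minus strand). Capitals mark motif matches.
Med23 promoter, chr10:24869836-24869985, plus strand, with an SP/KLF match: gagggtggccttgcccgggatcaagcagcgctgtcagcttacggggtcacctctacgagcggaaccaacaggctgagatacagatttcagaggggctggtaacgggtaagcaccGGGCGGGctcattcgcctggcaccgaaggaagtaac
Med12 promoter, chrX:101273940-101274029, plus strand, with no match: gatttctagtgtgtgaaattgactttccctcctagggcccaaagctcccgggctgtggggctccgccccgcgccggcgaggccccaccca
Med18 promoter, chr4:132463961-132464110, minus strand, with no match: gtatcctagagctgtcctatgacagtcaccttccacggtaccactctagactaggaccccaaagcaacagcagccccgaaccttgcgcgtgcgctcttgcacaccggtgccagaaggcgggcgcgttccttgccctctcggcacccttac
Med15 promoter, chr16:17722948-17723035, minus strand, with an NRF1 match: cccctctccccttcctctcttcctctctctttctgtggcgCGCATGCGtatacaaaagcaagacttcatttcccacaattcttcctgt
Med27 promoter, chr2:29346739-29346818, plus strand, with no match: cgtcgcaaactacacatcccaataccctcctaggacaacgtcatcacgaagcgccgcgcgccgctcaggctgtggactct
Med17 promoter, chr9:15279932-15280081, minus strand, with an ETS and an E-box match: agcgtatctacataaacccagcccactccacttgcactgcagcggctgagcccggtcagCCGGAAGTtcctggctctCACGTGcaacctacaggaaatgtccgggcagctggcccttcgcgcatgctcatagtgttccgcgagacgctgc
Med21 promoter, chr6:146642397-146642546, plus strand, with a CRE and an SP/KLF match: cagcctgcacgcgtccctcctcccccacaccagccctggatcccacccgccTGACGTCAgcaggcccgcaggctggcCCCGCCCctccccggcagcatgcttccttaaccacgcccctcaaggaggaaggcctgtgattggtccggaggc
Ccnc promoter, chr4:21727551-21727700, plus strand, with an NFY and an SP/KLF match: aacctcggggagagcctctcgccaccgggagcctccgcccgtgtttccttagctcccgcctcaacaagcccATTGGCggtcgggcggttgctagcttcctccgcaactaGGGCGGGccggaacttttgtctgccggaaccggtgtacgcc

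Nearly all Mediator genes had an open promoter in these cells. A promoter peak was called for 33 of 33 members in WT and for 31 of 33 in KO, where Med25 and Med27 had none. Over all coding genes the shares were 63.7% in WT, 62.9% in KO and 60.6% in both. The 31 members with a region in both lists had a median WT pileup of 33 (10 to 127) and a median KO pileup of 44 (7 to 124). Over all shared coding promoters the median was 31 in each list. In bulk samples such as these, fewer cells of a type and less accessibility per cell cannot be told apart. The order of the members was alike in the lists (Spearman rho 0.94 over the 31 members, and 0.93 over all shared coding promoters), and Med19, Med30 and Ccnc held the first 3 places in each.

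**Figure D1:**
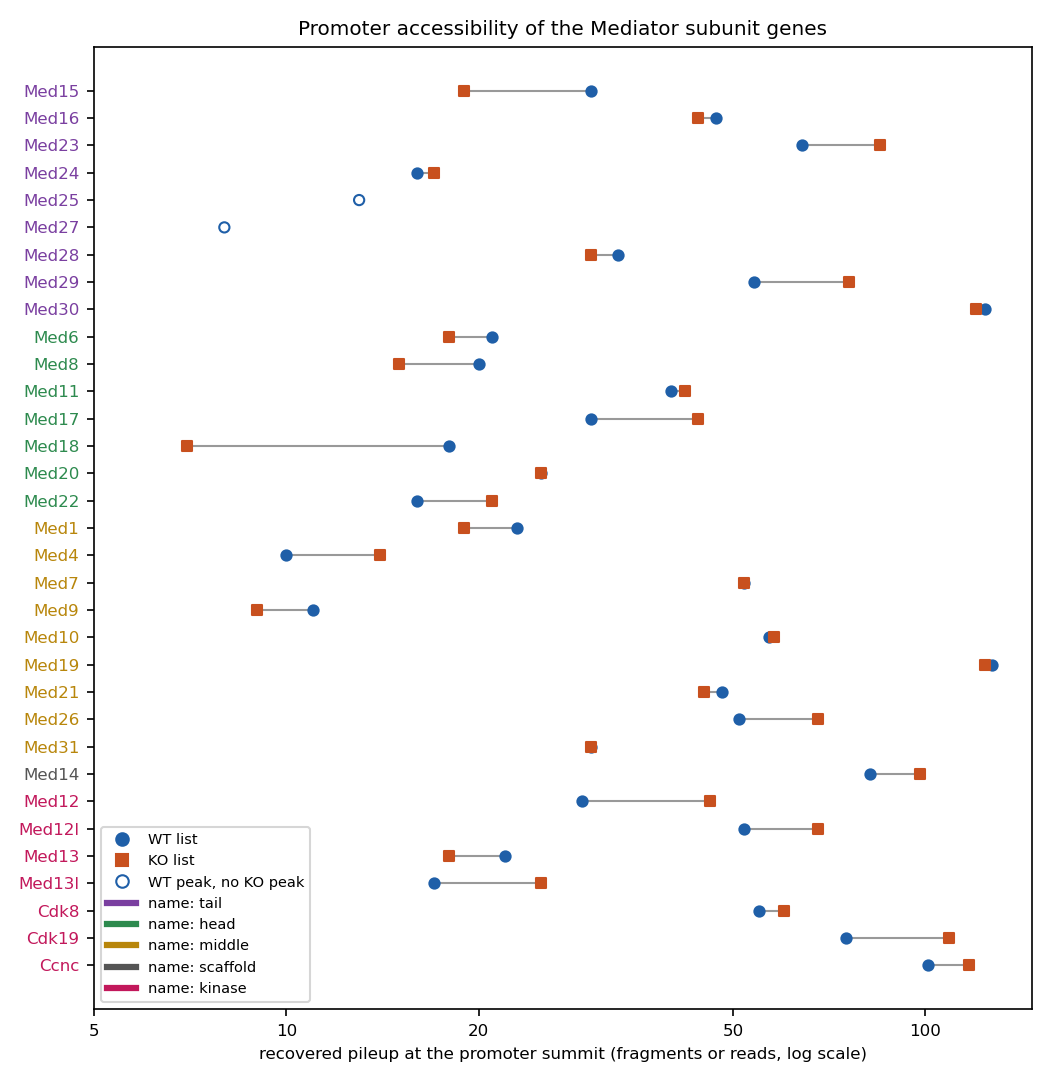
Recovered pileup at the promoter summit of each Mediator gene on a log axis, WT as circles and KO as squares joined by a line, with gene names coloured by module; open circles are WT peaks with no KO peak. Med19 reaches 127 in WT and 124 in KO, Med18 has the widest gap, from 18 to 7, and only Med25 and Med27 lack a KO value.

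Med23 itself kept an open promoter in the KO list. Its summit lay 45 bp upstream of the start site (chr10, 24869986, plus strand) in WT and 43 bp upstream in KO, in the stretch printed above. The WT pileup was 64 and the KO pileup 85. Both levels ranked 6 of the 31 members, and the log2 KO to WT ratio was 0.50 (0.01 to 0.99), 1.32-fold above the promoter median and not past the fold. That ratio ranked 8 of 31. The interval included the promoter median. No other peak was called in the 43.7-kb gene body in either list, so the lists carry no accessible region over the gene besides this promoter, and the deletion itself could not be checked from them.

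Among the other genes counted here as tail, no common direction was seen. The place of Med27, Med28, Med29 and Med30 between tail and head is not settled. With these 4 moved to the head, the median log2 ratio was 0.08 in the tail and 0.06 in the head. Med29, which had 54 in WT and 76 in KO, came nearest to Med23, with a log2 ratio of 0.58 (0.06 to 1.11). Med30, with the highest tail level, had 124 and 120 (log2 ratio 0.04). Med16, a tail subunit that contacts Med23 and Med24, had 47 and 44 (−0.01), and Med28 had 33 and 30 (−0.05). The intervals of these 3 genes included the promoter median.

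Med15, which receives activators such as the SREBPs, was lower in KO, with 30 in WT and 19 in KO and a log2 ratio of −0.57 (−1.48 to 0.30). It was past the fold at 0.628 times the promoter median, but its interval included that median. Its peak was also narrower, with 866 bp against 500 bp.

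Med24, Med25 and Med27 accounted for all 4 Mediator promoter peaks without a partner, each in WT only. For Med24 the region shared by both lists lay at an inner start site (chr11, 98711066, minus strand), with 16 in WT and 17 in KO (log2 ratio 0.17). At the outermost start site of Med24 (98729435) a WT peak with a pileup of 10 had no KO partner, and neither did a WT peak of 13 that lay 1339 bp downstream of the inner start. The single Med25 promoter peak had a WT pileup of 13 and a −log10 q of 2.48. Its local background was 3.56, beside a WT median of 3.02 at all shared coding promoters. Med25 is a docking site for activators such as ATF6. The Med27 peak lay 1 bp from the start site (chr2, 29346819, plus strand), at the end of the sequence shown above, with a WT pileup of 8 and a −log10 q of 3.10.

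All 4 unpaired peaks were weak. Among WT peaks at coding promoters, 9.42% had no overlap in the KO list, and 9.08% of KO peaks had none in the WT list. The share rose at low pileup: it was 53.8% of WT promoter peaks with a pileup of 8, 39.7% at 10 and 19.4% at 13. The smallest pileup of any peak was 6 in each list, and a missing KO peak at these levels says that no peak was called, not that the promoter was closed. 

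**Figure D2:**
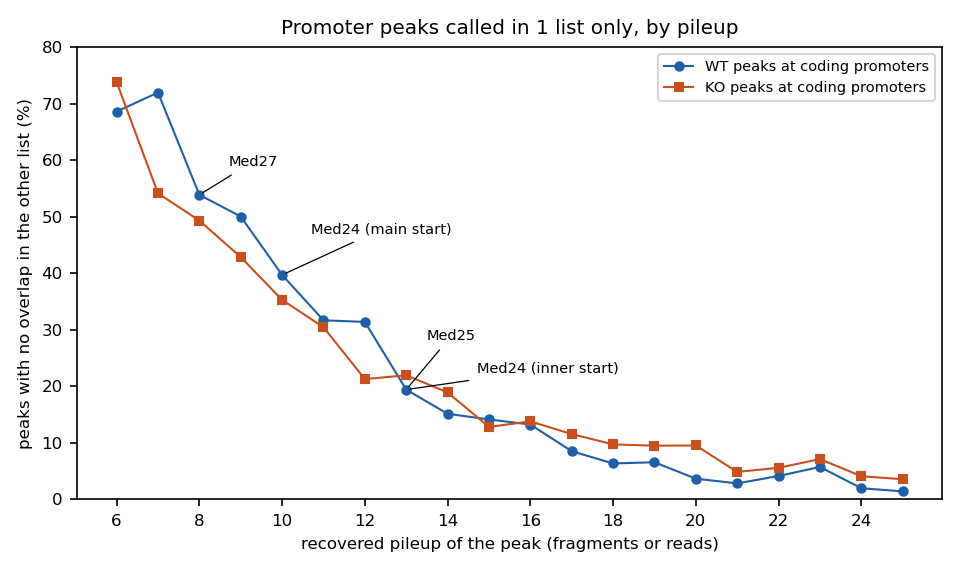
Share of coding promoter peaks with no overlapping peak in the other list (percent) against the recovered pileup of the peak, for WT and KO peaks, with the 4 unpaired Mediator peaks marked on the WT line. At the pileup of Med27 (8) the WT share is 53.8%, and at that of Med25 (13) it is 19.4%.

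In the kinase module 6 of 7 ratios lay above the promoter median, against 3 of 7 in the tail, 3 of 7 in the head and 3 of 9 in the middle. Med20 in the head and Med7 and Med31 in the middle count as below, although their pileups were equal in the lists. Their log2 ratios lay only 0.0125 under the median. With the authors' fold enrichment in place of pileups, the counts were 6 of 7, 3 of 7, 5 of 7 and 6 of 9, so that most head and middle genes then lay above as well. The median log2 ratio of the kinase module was 0.47, beside 0.04 in the tail (0.01 without Med23), 0.09 in the head and 0.09 in the middle. With 1 list a genotype, none of these module values could be tested.

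Med12, which activates the kinase through cyclin C, had the highest ratio of all members, with 29 in WT and 46 in KO and a log2 ratio of 0.75 (0.05 to 1.47). It was the only member past the fold in the higher direction, at 1.57 times the promoter median. Its paralog Med12l had 52 and 68 (0.47). Both promoters stood higher in KO, and both intervals included the promoter median.

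Med13, the subunit that links the kinase module to the core, was the exception, with 22 in WT and 18 in KO (−0.20). Its paralog Med13l had 17 and 25 (0.64, −0.30 to 1.62). The WT peak of Med13l spanned 1549 bp and the KO peak 363 bp. The paralogs lay on opposite sides of the promoter median, with overlapping intervals.

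Cdk8, the kinase, had 55 and 60 (0.21), and Cdk19, its paralog, had 75 and 109 (0.63, 0.19 to 1.07). Cdk19 was 1 of the 2 members whose interval left out the promoter median, although at 1.44 times that median it was not past the fold. Over all shared coding promoters, 2.41% had an interval wholly above the median and 1.13% wholly below it. Ccnc, which encodes cyclin C, had 101 and 117 (0.30) and was the most open of the kinase module genes in each list.

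In the head module, which contacts the polymerase, the ratios ranged from −1.28 to 0.64. Med18, which forms a movable head jaw with Med20, was the lowest member. Its WT pileup of 18 stood beside a KO pileup of 7, close to the smallest that was called. Its log2 ratio was −1.28 (−2.78 to 0.05). The KO peak had a −log10 q of 2.48, against 13.3 in WT. It was the second member whose interval left out the promoter median. Med20, its partner in the jaw, had 25 in each list. Med17, the central head subunit, stood at the other end with 30 in WT and 44 in KO (0.64, −0.06 to 1.36), and Med8 had 20 and 15 (−0.33, −1.40 to 0.71). The remaining head genes Med6, Med11 and Med22 had levels between 16 and 42.

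The 9 middle module genes lay between −0.20 and 0.57, and none was past the fold. They include Med1, the coactivator of nuclear receptors and of GATA1 in erythroid cells, Med26, which contacts elongation factors, and Med19, the most open promoter of all members. Med7 had 52 and Med31 had 30 in each list. Med4 and Med9 were the least open, with WT pileups of 10 and 11. Med14, the scaffold, had 82 in WT and 98 in KO (0.34).

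**Figure D3:**
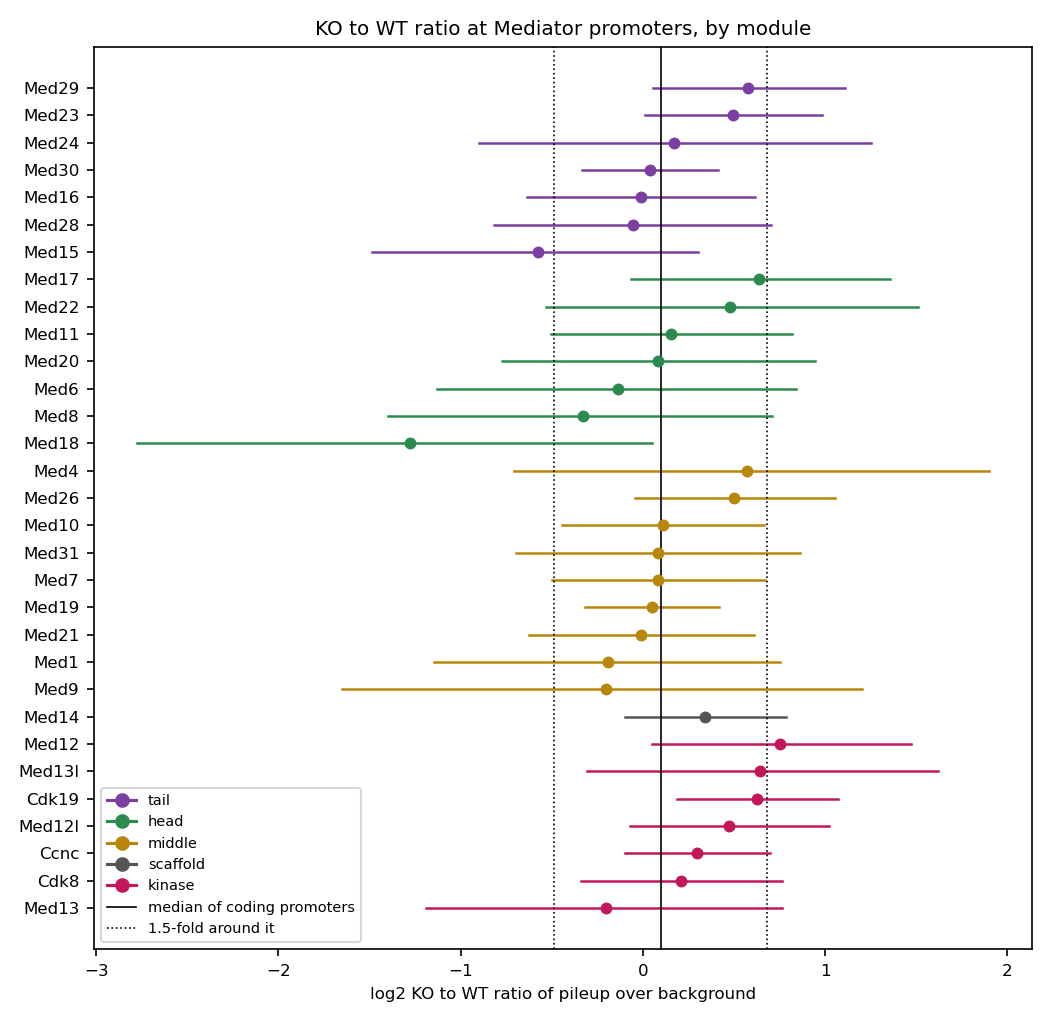
Log2 ratio of KO to WT accessibility (pileup over background) at the 31 shared Mediator promoters, ordered by module, with exact binomial 95% intervals (counting error only), the median of all shared coding promoters as a solid line and 1.5-fold around it dotted. Only Med12 lies right of the dotted range and only Med15 and Med18 left of it; the intervals of Med18 and Cdk19 alone miss the solid line.

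Over all 31 Mediator promoters, the median log2 ratio was 0.11, beside 0.0982 for all shared coding promoters, with an SD over genes of 0.42 and 0.37. The members split evenly, 16 above the promoter median and 15 below. In raw pileup 16 were higher in KO, 12 lower and 3 equal. Past the fold, 1 member was higher and 2 were lower, beside 5.36% of all shared coding promoters higher and 6.02% lower, next to 3.23% and 6.45% of the members. A smaller difference was more often upward: at a laxer fold limit, 0.32 on the log2 scale from the promoter median, 10 of the 31 (32.3%) were higher and 3 (9.68%) lower, beside 18.1% and 17.3% of all shared coding promoters. None of these shares was tested.

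**Figure D4:**
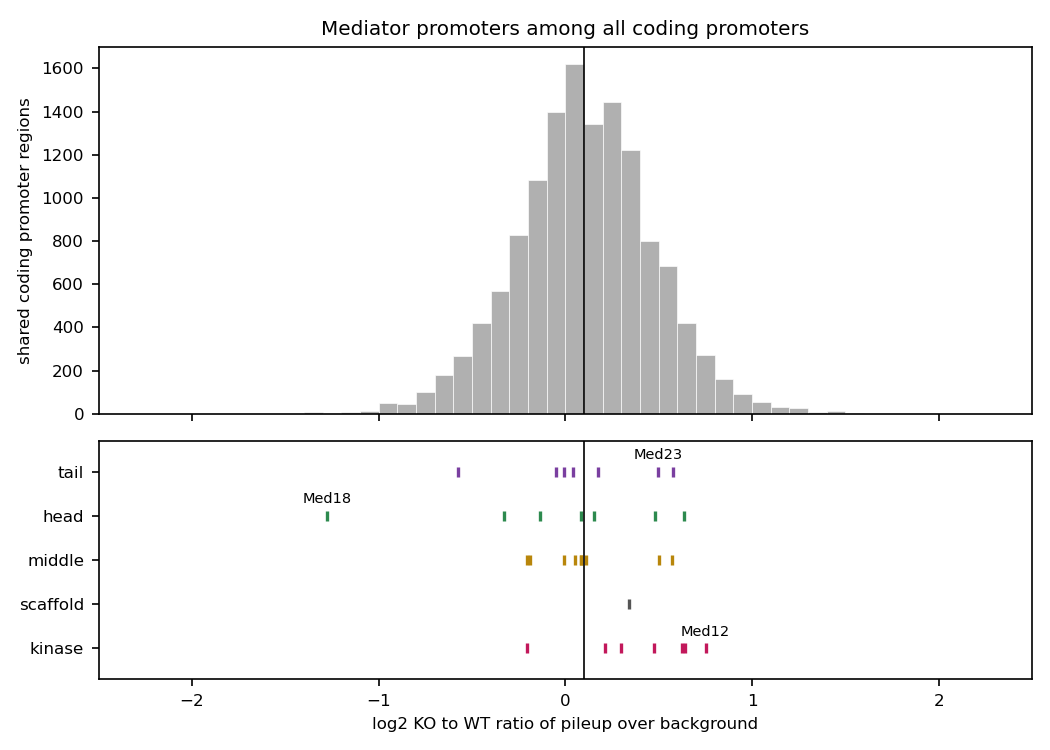
Number of shared coding promoter regions by log2 KO to WT ratio in steps of 0.1 (upper panel) and the Mediator promoters by module as ticks (lower panel), with the median of all promoters, 0.0982, as a line. The Mediator ticks fall inside the bulk of the distribution except Med18 at −1.28; 6 of 7 kinase module ticks lie right of the line.

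The summed pileup of the 31 promoters was 1380 in WT and 1523 in KO. Over background the sums gave a log2 ratio of 0.23 (0.12 to 0.33, counting error only), beside 0.13 for the sum over all shared coding promoters. That interval leaves out the spread between the genes (SD 0.42), and the genes with the highest pileups weigh most in the sum. The median percentile of the members' pileups among all shared coding promoters was 53.7 in WT and 67.3 in KO. Local backgrounds were lower in KO at 28 of the 31 and at 88.5% of all shared coding promoters, so a fold enrichment over local background stands higher in KO than a ratio of pileups does. WT and KO summits lay within 100 bp of each other in 25 of the 31 members and at 72.2% of all shared coding promoters.

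Accessible regions away from the gene's own start sites were found in 7 of the 33 genes. Most lay in the kinase module, with 27 of the 30 WT peaks and 31 of the 34 KO peaks. Med12l held 15 in WT and 16 in KO, Med13l 6 and 8, Cdk19 4 and 5, Med27 2 and 2, and Cdk8, Ccnc and Med29 1 each. These include the longest member genes. Per 100 kb, Med12l had 4.79 WT peaks and 5.11 KO peaks, above 97.0% and 97.5% of the 2489 coding genes of at least 100 kb, whose medians were 0.886 and 0.863. Of the Med12l peaks, 6 in WT and 7 in KO lay within 2 kb of a start site of another coding gene, and these are included in its density. All gene-body peaks were intronic except that of Med29, which lay in an exon. The peaks nearest to the promoter limit were a KO peak of Med13l, 2326 bp from a start site, and a WT peak of Med12l, 2382 bp from one.

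Of these peaks, 7 of 30 in WT (23.3%) and 11 of 34 in KO (32.4%) had no overlap in the other list, beside 29.0% and 29.2% of all such peaks in coding genes. The unpaired WT peaks had pileups from 6 to 12, and the unpaired KO peaks from 7 to 26. Outside Med12l the unpaired WT peaks were in Ccnc (8), Cdk19 (8), Med13l (6) and Med27 (10). The unpaired KO peaks there were in Ccnc (12), Cdk19 (9 and 14), Med13l (19, 7 and 11) and Med27 (13). At the 23 shared regions the log2 ratio ranged from −0.61 to 1.09, with a median of 0.26, beside 0.22 over 7819 shared gene-body regions of coding genes. Relative to that median 3 of the 23 were at least 1.5-fold higher and 1 was lower, beside 8.76% and 9.27% of all such regions.

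Med12l is the host of receptor genes that lie on the opposite strand inside it, among them Gpr171, P2ry14, P2ry13 and P2ry12. P2ry14 is the receptor for UDP-glucose and is used as a marker of blood stem and progenitor cells, while P2ry12 and P2ry13 are ADP receptors. Many accessible regions of Med12l belong, by position, to these genes as much as to Med12l: 9 WT and 9 KO peaks lay inside one of these 4 genes or within 2 kb of its start site. The most open body region lay inside P2ry14 (chr3, summit 59114130 in WT), with a pileup of 74 in WT and 98 in KO and a log2 ratio of 0.49 (0.04 to 0.95). It was more open than the promoter of Med12l itself.

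At a start site of P2ry14, with summits 10 bp from it in WT and 6 bp in KO, the pileup was 25 and 27. At the start of Gpr171 it was 19 in each list. At the start of P2ry13 a KO peak with a pileup of 26 and a −log10 q of 14.6 had no WT partner, the strongest unpaired peak of any Mediator gene. Among all KO gene-body peaks of coding genes with a pileup of 26, 6.59% were unpaired. The peak lies 33 bp from the P2ry13 start site and is thus a promoter peak as well. Among KO peaks at coding promoters with a pileup of 25, 3.52% were unpaired. A further KO peak of 13 lay 13 bp from another start site of P2ry14.

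Of the 12 Med12l regions shared by the lists, 8 lay above the gene-body median ratio and 4 below. Past the fold, 2 were higher in KO and 0 lower, beside 8.76% and 9.27% of all shared gene-body regions of coding genes. Of these, 1 lay 1.3 to 1.4 kb from a start of P2ry12, with 9 in WT and 18 in KO. It was weak in WT, and its interval reached below 0 (−0.14 to 2.42). The second region past the fold had 8 in WT and 15 in KO, and its interval also reached below 0 (−0.34 to 2.44). Of the 4 unpaired KO peaks in Med12l, the other 2 had a pileup of 7 each, and the 3 unpaired WT peaks had 12, 10 and 12.

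**Figure D5:**
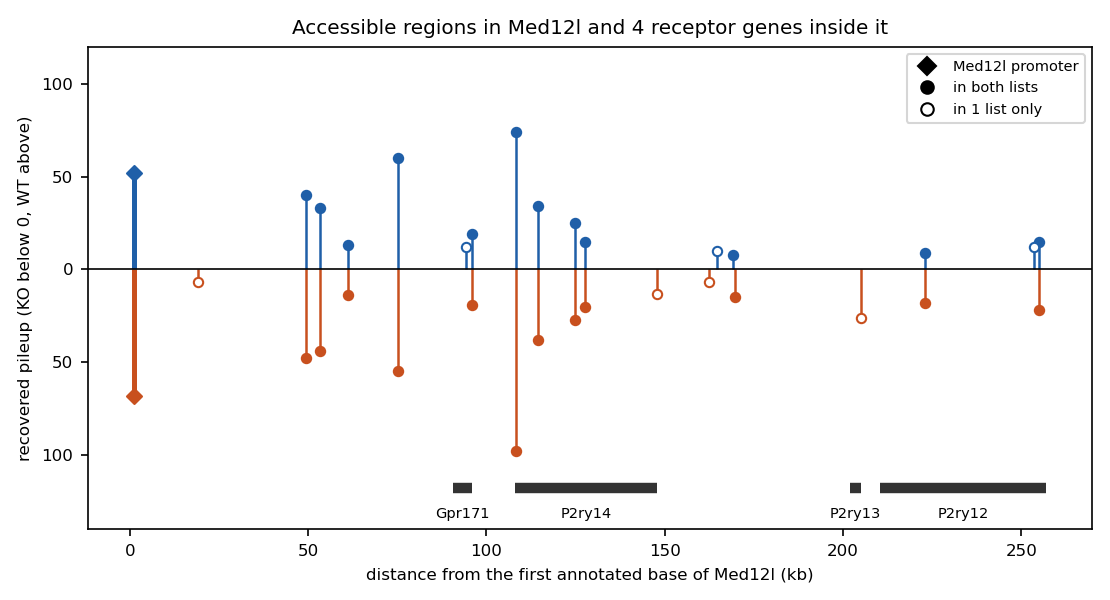
Peaks in Med12l by distance from its first annotated base (kb), with the recovered pileup of WT peaks drawn upward and of KO peaks downward; diamonds mark the Med12l promoter, filled circles peaks in both lists, open circles peaks in 1 list only, and bars 4 receptor genes inside it. The highest region is the one inside P2ry14, 74 in WT and 98 in KO, and the KO-only peak of 26 stands at the start of P2ry13.

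In Cdk19 the 3 shared intronic regions had WT pileups of 59, 39 and 30 and KO pileups of 70, 46 and 26, with WT summits 102403, 127534 and 22971 bp from the nearest start site of the gene. The intronic region of Cdk8 was narrow, 347 bp wide in WT and 354 bp wide in KO. It was more open than the Cdk8 promoter, with 66 and 70. In Med13l the shared regions were weak, with WT pileups of 9 to 18 and KO pileups of 8 to 18. Of these 5 regions, 1 was past the fold higher in KO (10 and 18) and 1 was past it lower (13 and 8), beside 8.76% and 9.27% of all such regions in coding genes.

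The other genes of the basal machinery were counted in the same way. Of 43 genes for RNA polymerase II subunits and general transcription factors, 41 had a promoter peak in WT and 38 in KO. The 37 with a shared region had a median log2 ratio of 0.06, from −0.91 to 0.80. Past the fold, Taf7 and Gtf2h1 were higher in KO, and Taf13, Gtf2h2 and Ercc2 were lower, 2 and 3 of 37 beside the same 5.36% and 6.02% of all promoters. Taf7, a TFIID subunit, had 50 in WT and 82 in KO, with a log2 ratio of 0.80 (0.27 to 1.34). Gtf2h2 and Ercc2, both of TFIIH, had 14 and 7, and 31 and 20.

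The Mediator promoters resembled other promoters in sequence. From 250 bases before to 50 after the start site, their median GC content was 60% (45.0% to 85.3%), beside 61.7% for coding genes with a shared region, and the median ratio of observed to expected CpG was 0.849, beside 0.773. Med13l had the highest GC content. The inner start of Med24 had the lowest CpG ratio, 0.153. A coding gene started in the opposite direction within 1 kb of 5 of the 33 genes (15.2%, beside 15.5%), among them Tmx2 beside Med19, Bysl beside Med20, Rpl7a beside Med22 and Paf1 beside Med29. For these pairs the accessible region cannot be assigned to either gene.

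Motifs were searched on both strands in the 200 bp around the summit, a window that differs from the stretches printed above. The SP/KLF motif GGGCGGG was found in 13 of 33 members (39.4%) and in 37.8% of the 13168 shared coding promoter regions, and the NFY motif GCCAAT in 5 (15.2%, beside 15.8%). The ETS motif CCGGAAGT was found in 4 (12.1%, beside 5.39%), Med8, Med15, Med17 and Med31. The E-box CACGTG was found in 5 (15.2%, beside 6.93%), Med11, Med13, Med17, Med28 and Cdk8. From 250 bases before to 50 after the start site the E-box was in 3 members, 9.09% beside 10.2%, so its share there was not above that of all promoters. In that window the ETS motif was in 5 (15.2%, beside 7.98%). The YY1 motif AAGATGGC was found in 2 (6.06%, beside 2.98%), Med1 and Med12. Near the start site, in the window used for the E-box, it was in the same 2, beside 4.81% of all promoters.

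NRF1 (CGCATGCG), CRE (TGACGTCA) and ZBTB33 (TCTCGCGA) were found in 1 member each (3.03%, beside 2.30%, 2.45% and 1.58% of all regions). The RUNX motif, with the letters TGTGGT, was also found in 1 (3.03%, beside 9.67% of all regions). AGATAA, the motif of the blood factors of the GATA family, was found in 1 as well (3.03%, beside 3.08%). PU.1 (GAGGAAGT), which shares its last 6 letters with the ETS motif, was found in none of the 33, beside 2.95%. Of the 4 members with ETS letters, Med8, Med15 and Med31 had ratios below the promoter median and Med17 had one above it.

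The stem cell label was checked against marker genes. A promoter peak was called for 6 of 10 HSC markers in each list, among them Kit, Mecom, Hlf and Meis1, with a summed pileup of 209 in WT and 231 in KO. Ly6a, which encodes the Sca-1 antigen of the sort, and Slamf1, which encodes CD150, had none at the promoter, though all 10 had a peak in the gene or within 10 kb. Of 17 markers of other cells, 9 in WT and 8 in KO had a promoter peak, with a summed pileup of 159 and 156. In the gene or within 10 kb, 12 of these 17 had a peak in WT and 11 in KO. The defining markers Cd3e, Cd3g, Ms4a1, Cd79a, Ly6g, Elane and Ncr1 had no promoter peak in either list, whereas all 3 erythroid and all 3 stromal markers did in both. Of these defining markers, Cd3g, Cd79a and Elane did have peaks in the gene or within 10 kb in both lists. The part of other cells in the Mediator values was not tested.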

How the data were processed

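ATAC-seq libraries of WT and KO HSCs were represented by 1 peak list per genotype, 4 deposited files in all with the summit lists. Per the study's methods and the submitters' processing notes, reads were trimmed with Trim Galore, aligned to mm10 with Bowtie2, cleared of duplicates and mitochondrial reads with Picard, and used to call peaks with MACS2 without a model. Versions, and whether replicates were pooled, are not given in the sources used here. Each deposited list holds the authors' fold enrichment (a ratio of summit pileup to local background), the −log10 of p and of q as deposited by the authors, and a deposited display score that was not used. The lists hold no read counts, so the depth per sample is unknown.

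The members, gene lists and motifs were chosen with earlier results of these data known. Pileup and local background were solved from fold enrichment and −log10 p under the Poisson model; a whole pileup matched within 0.001 for 100% of WT and 99.99% of KO peaks. The genome-wide background was the median of the 1000 lowest local backgrounds. Overlapping peaks (at least 1 bp) were merged into regions. Where a gene had several shared promoter regions, that with the highest summed pileup was used. Ratios have Clopper-Pearson 95% intervals. Full values were fixed for Med23, the tail and kinase genes, the 3 highest and 3 lowest ratios, members lacking a promoter peak and peaks in 1 list only. Annotation was GENCODE M21. Alternatives were other distances, q limits, scalings, fold limits, overlaps, motif windows and module assignments. Scripts were tested on simulated data and used Python 3.11, numpy 2.4.6, scipy 1.17.1 and pandas 2.3.3. Some neighbouring genes are not reported here.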

Additional observations from a re-analysis of the deposited data

How the results depend on the processing

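Of 99 alternative values, 78 stayed within the limits set for an unchanged value, 21 moved and 0 reversed. These counts do not show that every value was stable. The tail median, 0.04 in the main setting, was −0.05 with raw pileups and counted as unchanged. So did the RUNX share, 3.03% in the main window and 12.1% in 400 bp around the summit (9.67% and 17.4% of all regions). The E-box share, 15.2% in the main window and 9.09% near the start site, also counted as unchanged. With the authors' fold enrichment in place of pileups, the median log2 ratio of the members was 0.40, while the median of all promoters was 0.27. By module the median was then 0.25 in the tail, 0.39 in the head, 0.38 in the middle and 0.52 in the kinase module. Med14, the scaffold, had 0.73. Members past the fold were 10 higher and 3 lower at the laxer fold limit of 0.32 on the log2 scale (18.1% and 17.3% of all promoters), and 0 higher and 1 lower at 2-fold (0.661% and 0.638%). Centred on a ratio of 1 they were 4 higher and 1 lower (8.66% and 3.36% of all promoters). With fold enrichment they were 0 higher and 3 lower (1.81% and 5.08% of all promoters). A pileup of at least 15 in both lists, an alternative chosen after seeing the data, leaves out Med18. Of the 28 members left, 1 was higher and 1 lower, beside 3.44% and 3.92% of all promoters at that limit. Polymerase and general factor promoters past the fold were 7 higher and 6 lower of 37 at the laxer fold limit, and 0 and 1 at 2-fold. The shares of all promoters at these limits are those given above. Peaks in gene bodies in 1 list only were 15 of 30 in WT and 19 of 34 in KO when 50% overlap was asked for. The share over all coding genes was not counted at that overlap, so these counts have nothing to be set beside. When both lists were limited to a −log10 q of 5 or more, the WT list held 16 gene-body peaks, 1 of them unpaired (6.25%), and the KO list 27, 12 of them unpaired (44.4%), beside 19.6% and 32.1% of all such peaks in coding genes. At 10 or more it was 12 with 0 unpaired in WT and 17 with 5 unpaired (29.4%) in KO, beside 15.5% and 36.4%. No paired analysis was possible because the replicates of a genotype are not separated in the lists, and for the same reason no replicate could be left out.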
